A study of Homo sapiens with 4 samples.

Results

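The genes described here make the machinery that folds proteins in the endoplasmic reticulum (ER) and removes those that fail to fold. They were chosen as a list of 33 gene names covering stress sensors, chaperones, disulfide enzymes, degradation factors and subunits of the translocation channel, and a gene was taken when its name in the count table equalled a listed name. The table held 31 of the 33 names among 56304 genes. ERO1L and ERO1LB were not among the names of the table, whereas ERO1A, the newer symbol of ERO1L, was. All 31 genes passed the filter on low counts and were among the 15529 genes tested.

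The RNA came from MV3, a line of metastatic human melanoma cells that carried a histone H2B-GFP fusion in every library. Spheroids of 50000 cells were embedded in collagen I and cultured for 2 days, without irradiation. Under fluorescence guidance, a punch of 1 mm took out the compact core and a punch of 3 mm then collected the ring of invaded collagen around it, giving 2 libraries of total RNA per zone, numbered as replicates 1 and 2. The comparison asked how the cells left in the core differ from those that moved into the collagen. Because the core was punched vertically, cells that had invaded above and below it could remain in the core sample, and the labels do not say whether a library holds 1 spheroid or several. All values describe 1 cell line.

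Proteins of the secretory pathway enter the ER through the SEC61 channel, where chaperones of the HSP70 and HSP90 families and the lectins calnexin and calreticulin hold them while they fold, and protein disulfide isomerases form their disulfide bonds with oxidizing power supplied by ERO1. Chains that do not fold are returned to the cytosol and degraded, a route called ER-associated degradation. When unfolded chains accumulate, the 3 membrane sensors IRE1 (gene ERN1), PERK (EIF2AK3) and ATF6 start the unfolded protein response, in which the transcription factors XBP1 and ATF6 bind to short elements in the promoters of chaperone genes. Tumor cells with a large secretory output are known to rely on this response. IRE1 acts by splicing XBP1 mRNA and ATF6 by being cut, and neither step can be read from counts per gene.

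The best known of these promoter elements is the ER stress element (ERSE), written as CCAAT, then 9 bases of any kind, then CCACG. A related form, ERSE-II, reads ATTGG, 1 base of any kind, then CCACG. Exact matches on either strand were searched in promoter windows of RefSeq (build GRCh38.p14) that run from 250 bases before to 50 bases after a start site. Windows were held for 29 of the 31 genes and for 27305 genes in all, and DERL1 and PDIA3 had none. ERSE was found in the windows of 7 of the 29 genes (24.1%) and of 25 of all 27305 genes (0.0916%). ERSE-II was found in 3 of the 29 (10.3%) and in 19 of all genes (0.0696%). Together, 10 of the 29 genes (34.5%) and 44 of all genes (0.161%) held one of them. The elements of 9 of these genes are shown because ERSE is the element through which XBP1 and ATF6 are known to act on chaperone genes. Because the list was chosen to hold such genes, the higher shares describe that choice and are not a result of these data. CANX held ERSE as well, and HSP90B1 held a second ERSE farther upstream, and neither is printed. Capitals mark the element and lower case the 12 bases on each side, each read on the strand on which CCAAT or ATTGG comes first.
HSPA5, ERSE, chr9:125241379-125241421, minus strand: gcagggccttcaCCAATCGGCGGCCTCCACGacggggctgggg
HSP90B1, ERSE, chr12:103930309-103930351, minus strand: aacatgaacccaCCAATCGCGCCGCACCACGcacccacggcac
CALR, ERSE, chr19:12938372-12938414, minus strand: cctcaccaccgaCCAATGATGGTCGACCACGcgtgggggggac
CRELD2, ERSE, chr22:49918542-49918584, minus strand: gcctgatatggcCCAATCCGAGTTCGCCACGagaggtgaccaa
PDIA6, ERSE, chr2:10812841-10812883, minus strand: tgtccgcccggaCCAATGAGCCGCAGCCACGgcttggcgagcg
XBP1, ERSE, chr22:28800591-28800633, minus strand: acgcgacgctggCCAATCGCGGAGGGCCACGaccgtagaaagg
HERPUD1, ERSE-II, chr16:56932013-56932047, plus strand: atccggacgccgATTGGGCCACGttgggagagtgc
SDF2L1, ERSE-II, chr22:21642102-21642136, minus strand: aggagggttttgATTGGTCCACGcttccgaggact
HYOU1, first ERSE-II, chr11:119057368-119057402, plus strand: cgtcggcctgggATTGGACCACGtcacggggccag
HYOU1, second ERSE-II, chr11:119057262-119057296, plus strand: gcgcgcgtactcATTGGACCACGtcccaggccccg

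In these stretches the elements lie between 34 bases (XBP1) and 225 bases (CALR) upstream of the RefSeq start. A further element, the unfolded protein response element TGACGTGG, was matched in HYOU1 alone among the 29 genes and in 253 of all genes (0.927%). The shorter core ACGTG, which HYOU1's TGACGTGG contains, was matched in 15 of the 29 genes (51.7%) and in 6790 of all genes (24.9%). DNAJB9, whose mRNA showed the largest zone difference of the 31 genes held neither ERSE nor ERSE-II in its window. Its last 120 bases before the RefSeq start are shown for comparison, with matches to CACGTG, which contains ACGTG on both strands, in capitals.
DNAJB9, chr7:108569754-108569873, plus strand: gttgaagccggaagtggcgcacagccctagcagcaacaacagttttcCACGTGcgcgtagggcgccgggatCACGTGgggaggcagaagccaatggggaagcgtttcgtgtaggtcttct
A match is a string of letters and not a site of binding, and the absence of an exact match says only that these letters are not in the window.

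The libraries differed in depth. They held 36363358 and 14983135 counted reads in the core (replicates 1 and 2) and 37591782 and 11789243 in the invasion zone, so that a level of 3 counts corresponded to 0.0798 to 0.2545 CPM, the unit that scales counts to a common library total. Mitochondrial genes took 1.06% to 1.72% of the counts. Of 8 melanocyte lineage markers, SOX10 and TYR had no count in any library and only MITF exceeded 1 CPM in every library, whereas VIM, AXL, SOX9 and TNC summed, with NGFR, to 2687 to 3962 CPM. The summed levels of 4 epithelial markers were at most 0.307 CPM. The 4 leukocyte markers summed to 1.82 and 1.59 CPM in the core and to 0.480 and 0.505 CPM in the invasion zone, with CD3E at 0 counts. The 4 endothelial and fibroblast markers summed to 18.1 and 7.63 CPM in the core against 5.34 and 0.926 CPM in the invasion zone, almost all of it PECAM1, with DCN and LUM at 0 counts. Both sums were higher in the core, as were many of the folding genes described next. The protocol names no cells other than MV3 in the spheroids, and the source of these marker reads was not tested. In bulk RNA, fewer cells that express a gene and less mRNA per cell cannot be told apart.

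Levels below are in CPM, scaled by edgeR's TMM factors. The folding genes together lay lower in the invasion zone libraries. Their summed level was 10965.5 and 10486.7 CPM in the core libraries and 8472.44 and 8711.15 CPM in the invasion zone libraries, without overlap, although an exact permutation test of 2 against 2 libraries cannot give a two-sided p below 0.333. The genes that gave most to the core sum were CANX, P4HB, HSPA5 and HSP90B1, with mean levels of 1688, 1557, 1221 and 1168 CPM. In the invasion zone their means were 1556, 1069, 1013 and 750 CPM. Per kilobase of the canonical transcript, the mean level over the 4 libraries was highest for P4HB, at 538.8 CPM per kilobase, followed by HSP90B1 (344.8), CANX (329.9), HSPA5 (284.9), SEC61A1 (229.0) and SEC61B (210.5). At the other end stood the kinase sensor ERN1 (2.05 CPM per kilobase), the ubiquitin ligase SYVN1 (5.81), the kinase sensor EIF2AK3 (6.23) and the transcription factor CREB3L2 (6.91).

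**Figure D1:**
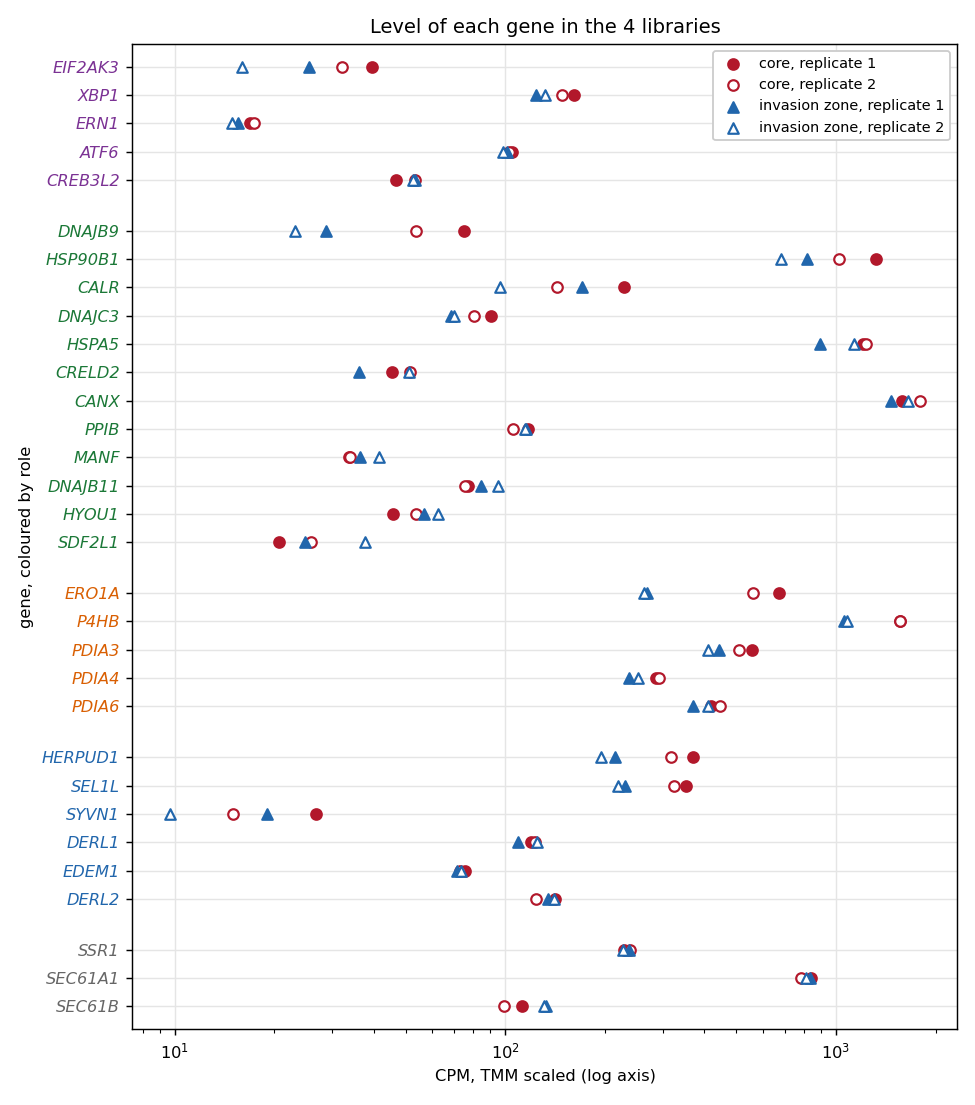
Level of each of the 31 genes in the 4 libraries, in TMM-scaled CPM on a log axis. Each row is a gene, coloured and grouped by role. Red circles stand for the core and blue triangles for the invasion zone, filled for replicate 1 and open for replicate 2. For DNAJB9, ERO1A, HERPUD1, SEL1L and P4HB the blue symbols lie to the left of the red ones, whereas those of SEC61B lie to the right.

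With the libraries of each zone treated as unpaired, edgeR's quasi-likelihood test called no gene at an adjusted p under 0.05. That held for 0 of the 31 folding genes and for 0 of 15529 genes (0% higher and 0% lower), with a smallest adjusted p of 0.128. At an unadjusted p under 0.05, 7 of the 31 genes (22.6%) were lower in the invasion zone, against 12.4% of all genes tested. These were DNAJB9, EIF2AK3, ERO1A, HERPUD1, HSP90B1, P4HB and SEL1L. None was higher, against 11.9% of all genes. DESeq2, on the same counts, called 6 of the 31 genes lower (19.4%), namely the same list without EIF2AK3, and none higher, against 5.58% and 5.25% of all genes. By limma voom without the block, 0 of the 31 genes were called, and 0 of all genes tested in either direction. Without the filter on low counts, which raised the number of genes tested to 32869, the unpaired edgeR test called the same 7 genes lower and none higher, against 4.34% and 3.49% of those genes.

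The libraries that share a replicate number deviated together from the means of their zones, and a fit with the replicate number as a block called many more genes. In that fit, 14 of the 31 folding genes (45.2%) fell in the invasion zone, against 19.4% of all genes tested, and 2 (6.45%) rose, against 19.4% of all genes. The genes that fell were CALR, DNAJB9, DNAJC3, EIF2AK3, ERO1A, HERPUD1, HSP90B1, HSPA5, P4HB, PDIA3, PDIA4, SEL1L, SYVN1 and XBP1, and those that rose were SDF2L1 and SEC61B. Of the 14, CALR, DNAJB9, EIF2AK3, ERO1A, HERPUD1, HSP90B1, P4HB, PDIA3 and SEL1L, 9 genes in all, were called lower by edgeR, DESeq2 and limma voom alike when each had the block. DESeq2 with the block called these 9 lower and only SEC61B higher, against 12.5% and 13.9% of all genes, and limma voom with the block called the same 14 lower and added HYOU1 to those higher, against 20.8% of all genes in each direction. A change of at least 2-fold was reached by 2 genes, DNAJB9 and ERO1A, both lower, against 7.06% of all genes lower and 3.41% higher by the same criterion. Without any model, the higher of the invasion zone values was still under the lower of the core values for 15 of the 31 genes (48.4%), against 30.3% of all genes, and the reverse held for 4 (12.9%), namely DNAJB11, HYOU1, MANF and SEC61B, against 28.1%.

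The median log2 fold change of the 31 genes (invasion zone over core, unpaired fit) was -0.16, against -0.01 for all genes tested. Within replicates 1 and 2 the median was -0.18 and -0.12. The single genes ranged from -1.30 (DNAJB9) to 0.42 (SDF2L1). Leaving out a library moved the median between -0.18 and -0.08. Below, log2 fold changes are given with their standard error (SE) from the unpaired fit, n = 2 libraries per zone, and adjusted p-values are edgeR's with Benjamini-Hochberg adjustment over all 15529 genes unless another tool is named. A correction of the counts for GC content and transcript length, added after seeing the data, is named where it ended or made a call of the fit with the block, turned a sign or moved an estimate called with the block by over 1.5 times. With the block, the correction also moved the median of all genes tested, from -0.01 to 0.07.

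**Figure D2:**
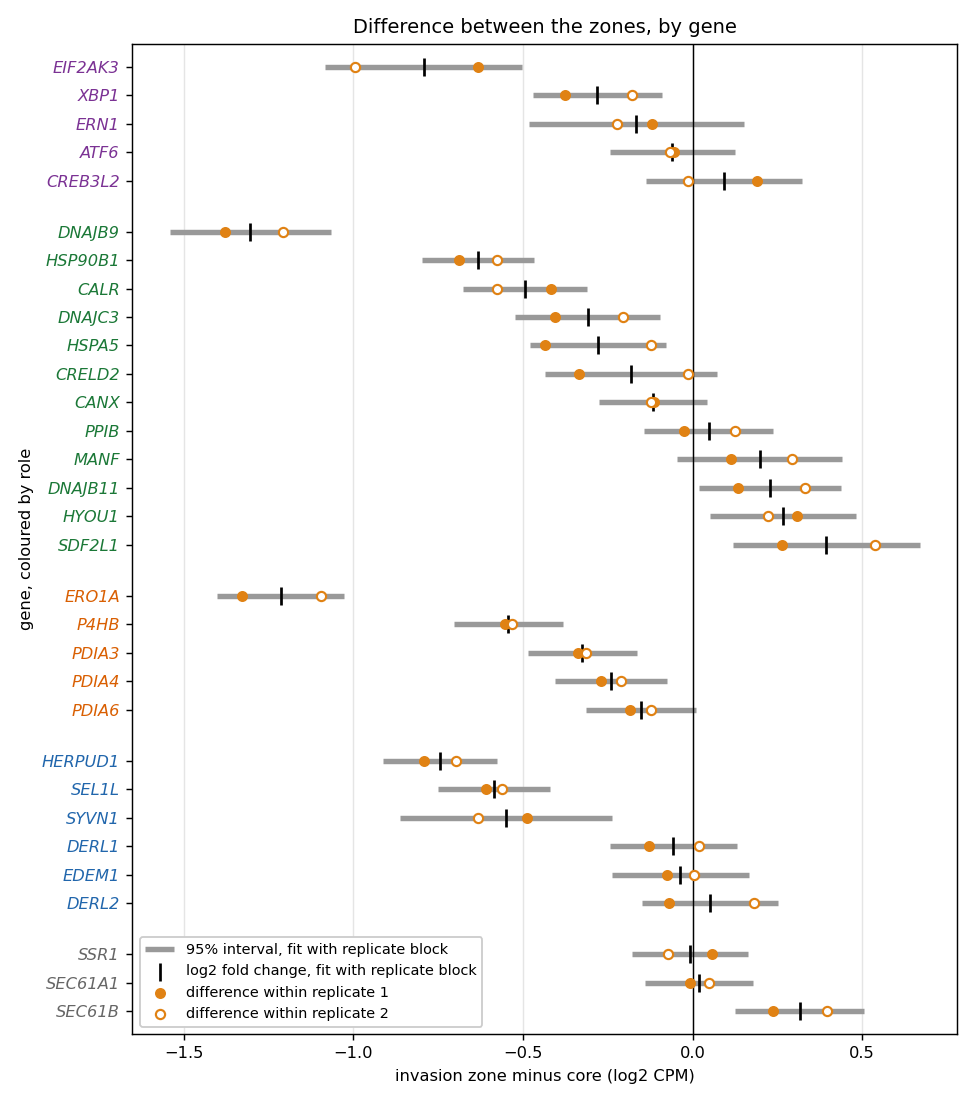
Invasion zone minus core for each of the 31 genes, in log2 CPM. Filled and open orange points are the differences within replicates 1 and 2, the black tick is the log2 fold change of the fit with the replicate block and the grey bar its 95% interval. DNAJB9 and ERO1A lie farthest to the left, at about -1.30 and -1.22, and the points of both replicates lie left of 0 for all 5 disulfide enzymes.

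Of the 5 sensors and transcription factors, 2 fell with the block and none rose, against 19.4% of all genes tested in each direction. EIF2AK3 differed most. EIF2AK3 (chr2:88556741-88691518 in hg38, minus strand), the kinase that slows translation during ER stress, had 39.6 and 32.0 CPM in the core libraries and 25.5 and 15.99 CPM in the invasion zone libraries. The zones did not overlap, although the replicates of each zone lay far apart. Its log2 fold change was -0.78 (SE 0.27), with an adjusted p of 0.170 unpaired and 0.00146 with the block. When 1 library at a time was left out, the unpaired estimate ran from -1.16 to -0.49.

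XBP1 (chr22:28794555-28800597, minus strand), the transcription factor whose mRNA IRE1 splices, had 161 and 149 CPM in the core and 124 and 131 CPM in the invasion zone. The difference was small and in the same direction in both replicates. Its log2 fold change was -0.28 (SE 0.13), with an adjusted p of 0.269 unpaired and 0.0269 with the block. DESeq2 with the block did not call it (adjusted p = 0.109).

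ERN1, the IRE1 kinase and nuclease itself, had 16.9 and 17.4 CPM in the core and 15.6 and 14.9 CPM in the invasion zone. ATF6 had 105 and 103 CPM in the core and 101 and 98.2 CPM in the invasion zone. For both sensors the zones did not overlap, although the steps were small. The 95% interval of the log2 fold change with the block ran from -0.48 to 0.15 for ERN1 and from -0.24 to 0.13 for ATF6. The GC and length correction turned the sign of both blocked estimates, to 0.03 and 0.0042. Both still lay under the median of all genes tested in that fit, 0.07. CREB3L2, a membrane-bound transcription factor related to ATF6 that acts on secretory genes, had 46.6 and 53.2 CPM in the core and 53.2 and 52.7 CPM in the invasion zone, so that its zones overlapped (block interval -0.14 to 0.32). None of these 3 genes passed either edgeR test.

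The 12 chaperones and cochaperones split. With the block, 5 fell and 1 rose, against 19.4% of all genes tested in each direction. The median log2 fold change of the 12 was -0.14, against -0.01 for all genes tested. DNAJB9 (chr7:108569867-108574850, plus strand), the cochaperone ERdj4 that binds HSPA5 and restrains IRE1, had 74.9 and 53.5 CPM in the core and 28.7 and 23.1 CPM in the invasion zone. Every invasion zone library lay under every core library, and the fitted level was 2.47-fold higher in the core. The log2 fold change was -1.30 (SE 0.23), and the differences within replicates 1 and 2 were -1.38 and -1.21. The adjusted p was 0.128 unpaired and 8.39e-05 with the block, and 0.000172 by DESeq2 without it.

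HSP90B1 (GRP94, chr12:103930107-103953931, plus strand), the HSP90 chaperone of the ER, had 1317 and 1020 CPM in the core and 817 and 683 CPM in the invasion zone. Its zones did not overlap, and its log2 fold change was -0.64 (SE 0.20), with an adjusted p of 0.155 unpaired and 0.000286 with the block. HSPA5 (BiP, chr9:125234853-125241382, minus strand), the HSP70 chaperone that also holds the sensors inactive, had 1209 and 1233 CPM in the core and 893 and 1133 CPM in the invasion zone. Here the second invasion zone library came close to the core, and the differences within replicates 1 and 2 were -0.44 and -0.12. The log2 fold change of HSPA5 was -0.27 (SE 0.17), with an adjusted p of 0.392 unpaired and 0.0339 with the block, and DESeq2 with the block did not call it (adjusted p = 0.0695). Its unpaired estimate was -0.45 without invasion zone replicate 2 and -0.11 without invasion zone replicate 1.

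CALR (calreticulin, chr19:12938578-12944489, plus strand), the soluble lectin chaperone, had 228 and 143 CPM in the core and 171 and 96.0 CPM in the invasion zone. Replicate 2 was lower than replicate 1 in both zones, so the zones overlapped while the differences within replicates, -0.42 and -0.58, were alike. Its log2 fold change was -0.48 (SE 0.35), with an adjusted p of 0.445 unpaired and 0.00153 with the block, and without a single library the unpaired estimate ran from -0.95 to -0.09. DNAJC3 (p58IPK), a cochaperone known to inhibit PERK, had 90.8 and 80.4 CPM in the core and 68.5 and 69.8 CPM in the invasion zone. Its zones did not overlap, and its log2 fold change of -0.31 (SE 0.14) had an adjusted p of 0.248 unpaired, 0.0287 with the block and 0.118 by DESeq2 with the block.

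CANX (calnexin), the membrane-bound lectin chaperone, passed no test. It had 1582 and 1794 CPM in the core and 1463 and 1648 CPM in the invasion zone, with overlapping zones and a block interval of -0.28 to 0.04 for the log2 fold change. A difference between CANX and CALR was not tested. SDF2L1 (chr22:21642302-21644299, plus strand), a partner of HSPA5 and its cochaperones, had 20.7 and 25.8 CPM in the core and 24.8 and 37.5 CPM in the invasion zone. The zones overlapped, and within replicates 1 and 2 it was higher in the invasion zone by 0.26 and 0.54. Its log2 fold change was 0.42 (SE 0.26), with an adjusted p of 0.365 unpaired, 0.0308 with the block and 0.120 by DESeq2 with the block, and the GC and length correction raised the blocked estimate from 0.39 to 0.66. The unpaired estimate of SDF2L1 was 0.098 without invasion zone replicate 2 and 0.70 without invasion zone replicate 1.

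The remaining chaperones passed neither edgeR test. HYOU1, an HSP110-type chaperone that exchanges nucleotide on HSPA5, had 45.7 and 53.7 CPM in the core and 56.6 and 62.6 CPM in the invasion zone. All its invasion zone values lay above its core values, with an adjusted p of 0.0522 with the block. It was called higher by limma voom with the block (adjusted p = 0.0347) and after the GC and length correction, which moved its log2 fold change from 0.27 to 0.50. DNAJB11, an HSP40 cochaperone of HSPA5, and MANF, a secreted ER stress protein, also lay higher in both invasion zone libraries, with log2 fold changes of 0.23 and 0.21 and adjusted p-values of 0.0807 and 0.1798 with the block. CRELD2, a secreted ER stress protein, and PPIB, the ER cyclophilin B that isomerizes prolines, had log2 fold changes of -0.16 and 0.05 with overlapping zones. The sign of CRELD2 turned with the GC and length correction and without invasion zone replicate 1.

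**Figure D3:**
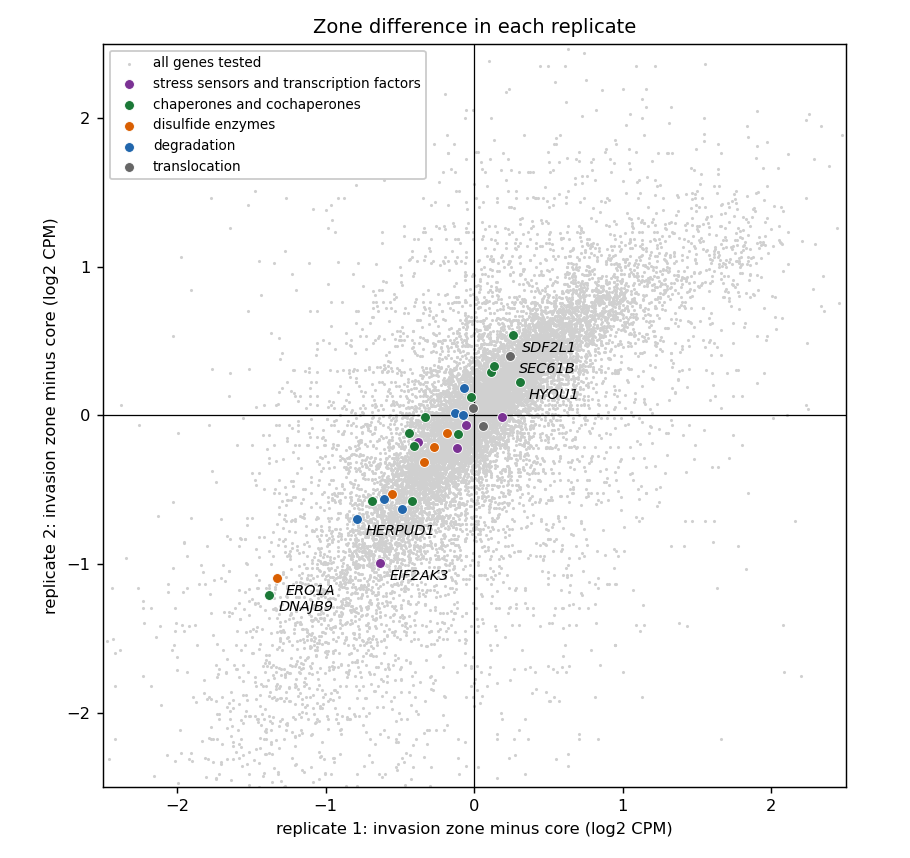
Zone difference within replicate 2 against that within replicate 1, in log2 CPM, for the 31 genes (coloured by role) over all 15529 genes tested (grey). The axes end at 2.5 in each direction and leave 438 genes outside. The coloured points spread along the diagonal from DNAJB9 and ERO1A at the lower left to SDF2L1, SEC61B and HYOU1 at the upper right.

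All 5 disulfide enzymes had both invasion zone libraries under both core libraries, against 30.3% of all genes tested. With the block 4 of the 5 fell, against 19.4% of all genes, and PDIA6 passed no test. Their median log2 fold change was -0.33. ERO1A (chr14:52639915-52695900, minus strand), the oxidase that reoxidizes protein disulfide isomerase, had 673 and 563 CPM in the core and 268 and 263 CPM in the invasion zone. The gap between the zones was larger than the spread within either, and the fitted level was 2.33-fold higher in the core. Its log2 fold change was -1.22 (SE 0.16), with an adjusted p of 0.128 unpaired and 5.60e-05 with the block. Without a single library the unpaired estimate stayed between -1.33 and -1.07. ERO1B, the other human ERO1 oxidase, was outside the selection because the list gives it by an older symbol, ERO1LB. It was expressed at a far lower level, with 8.72 and 6.17 CPM in the core and 3.52 and 3.62 CPM in the invasion zone. Its log2 fold change was -1.07 (SE 0.29), with an adjusted p of 0.1425 unpaired and 0.00737 with the block.

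P4HB (PDI, chr17:81843159-81860856, minus strand), the founding protein disulfide isomerase and the beta subunit of collagen prolyl 4-hydroxylase, had 1557 and 1557 CPM in the core and 1060 and 1077 CPM in the invasion zone. Its replicates were the closest of the genes that fell, and the log2 fold change was -0.54 (SE 0.14), with an adjusted p of 0.135 unpaired and 0.000489 with the block. The correction for GC content and length brought the blocked estimate to -0.34, where it was still called (adjusted p = 0.00164). PDIA3 (ERp57), the isomerase that works with calnexin and calreticulin, had 558 and 509 CPM in the core and 442 and 410 CPM in the invasion zone. Its zones did not overlap, and its log2 fold change of -0.33 (SE 0.14) had an adjusted p of 0.236 unpaired and 0.00645 with the block.

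PDIA4 (ERp72) had 286 and 291 CPM in the core and 237 and 251 CPM in the invasion zone. The zones did not overlap, and the step was larger than the spread within either zone, with a log2 fold change of -0.24 (SE 0.13) and an adjusted p of 0.326 unpaired and 0.0287 with the block. The call was lost with the GC and length correction, where the log2 fold change was -0.13 (adjusted p = 0.241), and by DESeq2 with the block (adjusted p = 0.125). PDIA6 (P5), a further isomerase, had a log2 fold change of -0.15 and an adjusted p of 0.125 with the block, and was not called.

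The 6 degradation genes fell into a group of 3 that were lower and a group of 3 near 0. With the block, the first 3 were called lower and none was called higher, against 19.4% of all genes tested in each direction. HERPUD1 (chr16:56932142-56944864, plus strand), a membrane protein that helps to assemble the degradation complex, had 370 and 316 CPM in the core and 214 and 195 CPM in the invasion zone. Its zones did not overlap, and its log2 fold change was -0.75 (SE 0.15), with an adjusted p of 0.128 unpaired, 0.000164 with the block and 0.00526 by DESeq2 without it. SEL1L (chr14:81471547-81533853, minus strand), the scaffold of that complex, had 352 and 324 CPM in the core and 231 and 219 CPM in the invasion zone. It too did not overlap between zones, and its log2 fold change of -0.59 (SE 0.14) had an adjusted p of 0.133 unpaired and 0.000398 with the block.

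SYVN1 (HRD1, chr11:65121780-65134532, minus strand), the ubiquitin ligase that SEL1L holds, had 26.8 and 15.1 CPM in the core and 19.1 and 9.68 CPM in the invasion zone. As with CALR, replicate 2 was lower in both zones, the zones overlapped and the differences within replicates, -0.49 and -0.63, were alike. The log2 fold change was -0.53 (SE 0.42), with an adjusted p of 0.481 unpaired and 0.0125 with the block. It was lost with the GC and length correction (log2 fold change -0.32, adjusted p = 0.0945) and by DESeq2 with the block (adjusted p = 0.0710), and without a single library the unpaired estimate ran from -1.12 to -0.04. DERL1 and DERL2, membrane proteins through which substrates leave the ER, and EDEM1, a lectin that delivers them, had log2 fold changes of -0.05, 0.05 and -0.04. The zones overlapped for all 3 genes, and none passed either edgeR test. Each of the 3 signs turned under at least 1 alternative, that of EDEM1 with the GC and length correction.

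With the block, none of the 3 translocation genes was called lower and 1 was called higher, against 19.4% of all genes tested in each direction. SEC61A1, the pore-forming subunit of the channel and the most abundant of the 3 per kilobase, had 838 and 785 CPM in the core and 834 and 811 CPM in the invasion zone. Its zones overlapped, and the block interval of its log2 fold change was -0.14 to 0.18. SEC61B (chr9:99222064-99230615, plus strand), the small beta subunit, had 112 and 99.3 CPM in the core and 133 and 131 CPM in the invasion zone. Both invasion zone values lay above both core values, and the log2 fold change was 0.31 (SE 0.14), with an adjusted p of 0.236 unpaired, 0.0162 with the block and 0.0476 by DESeq2 with the block. SSR1, the alpha subunit of the translocon-associated protein complex, had a log2 fold change of -0.01 (block interval -0.18 to 0.16), which the GC and length correction with the block turned to 0.06.

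Some of these genes share exonic bases with a neighbour that is itself expressed. SYVN1 shares 130 bases with FAU on the same strand and 356 with MRPL49 on the opposite strand. SEC61A1 shares 622 with RUVBL1, HSP90B1 805 with UQCC6 and CRELD2 168 with ALG12, each on the opposite strand. Also on the opposite strand, DNAJB11 shares 381 with TBCCD1, DERL1 333 with TBC1D31 and DERL2 301 with MIS12. The sources used here do not say whether counting used strand, so reads from those stretches cannot be assigned with certainty.

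Split by promoter element, the 10 genes with ERSE or ERSE-II had a median log2 fold change of -0.21, and with the block 5 of them fell (CALR, HERPUD1, HSP90B1, HSPA5 and XBP1) and 1 rose (SDF2L1), against 19.4% of all genes in each direction. The 19 genes with a promoter window and neither element had a median of -0.06, with 8 that fell and 1 that rose. All genes tested had a median of -0.01. The genes that moved most, DNAJB9 and ERO1A, belong to the second group. Genes with an element were found on both sides of 0, and a difference between the groups was not tested.

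The rest of the ER machinery was compared through 4 further lists that hold none of the 31 genes, each read against the 19.4% of all genes called higher and 19.4% called lower with the block. No gene of these lists passed edgeR's unpaired test, whereas of the 112 genes tested 8 were higher and 13 lower at an unadjusted p under 0.05, against 11.9% and 12.4% of all genes, and DESeq2 called 3 higher and 6 lower, against 5.25% and 5.58%. Of 36 other folding genes, 9 fell and 3 rose with the block, and their median log2 fold change was -0.11. Those with the smallest p-values were FKBP10, a prolyl isomerase for collagen (-0.73), CRELD1 (-1.25, which shares exonic bases with other genes) and FKBP7 (-0.62) among those that fell, and DNAJC1 (0.68), TMX1 (0.30) and FKBP11 (0.44) among those that rose. FKBP10 had 226 and 239 CPM in the core against 138 and 142 CPM in the invasion zone, without overlap. With the GC and length correction its blocked estimate was -0.49 and still called, and FKBP11 was not called by DESeq2 with the block (adjusted p = 0.110).

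Of 28 other degradation genes tested, 12 fell and 6 rose with the block, with a median of -0.13. OS9, a lectin of the HRD1 complex that shares exonic bases with another gene (-0.84), FAM8A1, a cofactor of HRD1 (-1.05), and the ligase TMEM129 (-0.67) led those that fell, whereas the conjugating enzymes UBE2G2 (0.73) and UBE2J2 (0.42) and the extraction factor UFD1L (0.52) led those that rose. FAM8A1 had 64.6 and 47.4 CPM in the core and 34.7 and 18.9 CPM in the invasion zone, and UBE2G2 had 66.1 and 79.5 CPM in the core and 110 and 131 CPM in the invasion zone. Neither gene overlapped between zones. The GC and length correction moved the blocked estimates of TMEM129 to -0.32 and of UBE2J2 to 0.66, and both were still called.

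Of 30 other translocation and glycosylation genes tested, 7 rose and 6 fell, with a median of 0.05. SSR3, the gamma subunit of the complex that holds SSR1, shares exonic bases with an antisense gene. It had 476 and 578 CPM in the core and 907 and 1030 CPM in the invasion zone. The zones did not overlap, and SSR3 was higher in the invasion zone by 0.88 on the log2 scale (SE 0.17, adjusted p = 0.128 unpaired and 8.54e-05 with the block). SRP9 (0.39) and SRP19 (0.52) followed it, and SRP14 (-0.43), TRAM1 (-0.35) and OSTC (-0.35) led those that fell. The GC and length correction moved the blocked estimate of SRP9 to 0.25 (adjusted p = 0.0403).

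Of 18 other genes of the sensor branches, 3 rose and 4 fell, with a median of -0.18. EIF2S1, the translation factor subunit that PERK phosphorylates (0.64), PPP1R15A, which leads the phosphatase back to it (0.45), and TRAF2, an adaptor of IRE1 (0.35), rose. Among those that fell were MBTPS1, the site-1 protease that cuts ATF6 (-0.50), BBC3 (-1.15) and TRIB3 (-0.35). EIF2S1 had 348 and 391 CPM in the core and 507 and 646 CPM in the invasion zone, and MBTPS1 had 320 and 243 CPM in the core and 228 and 170 CPM in the invasion zone. TRIB3 was no longer called with the GC and length correction, where its blocked estimate was -0.06 (adjusted p = 0.682), nor by DESeq2 with the block (adjusted p = 0.0825), and TRAF2 was not called by the latter either (adjusted p = 0.0635). The correction moved the blocked estimates of BBC3 to -0.75, PPP1R15A to 0.69 and TRAF2 to 0.63, all still called.

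**Figure D4:**
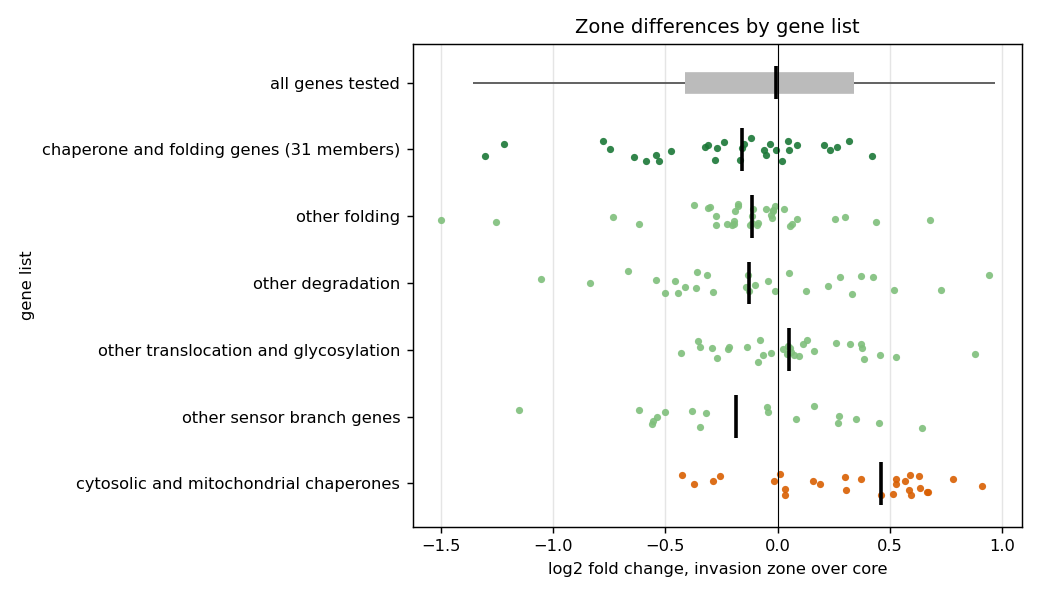
Log2 fold change (invasion zone over core, unpaired fit) of each gene, by list. Each point is a gene, the black line is the median of the list, and the top row shows all 15529 genes tested with the middle 50% as a bar and the middle 90% as a line. The medians of the folding, degradation and sensor lists lie between -0.18 and -0.11, that of translocation and glycosylation at 0.05 and that of cytosolic and mitochondrial chaperones at 0.46.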

How the data were processed

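Total RNA of 4 samples (core and invasion zone, 2 each) was sequenced after SMARTer amplification. The authors removed ribosomal reads with Bowtie, kept reads of quality above 15, aligned them to hg38 with STAR and, for uniquely mapped reads, counted genes with HTSeq. Neither tool versions nor use of strand were given in the sources used here. The deposited counts are raw. Of 56306 rows, 2 repeated names without counts were left out, 98.1% of the rest had a position in GENCODE v44, and column names gave zone and replicate.

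Genes with 10 or more counts (scaled to the median library) in 2 libraries and 15 in all were tested with edgeR 4.0.16 in R 4.3.3 (TMM scaling, quasi-likelihood, no block; called at an adjusted p under 0.05). SEs were obtained as the log2 fold change over the square root of F. Counts of same-zone libraries differed by more than sampling noise (chi-square per degree of freedom 33.8 and 31.9). The deviations of same-numbered libraries from the means of their zones correlated at 0.584 over genes. With 2 libraries per zone, both replicate numbers give the same value by construction, so this is 1 observation. The protocol describes an invasion zone corresponding to each core, but no source states what a number marks, so blocked values stand beside unpaired ones. Because nothing says that libraries came from separate cultures, unpaired p-values measure the spread between these libraries. Blocked p-values leave out the spread between replicate numbers and rest on how far the zone differences of the 2 numbers disagree. The common biological coefficient of variation was 0.216 without the block and 0.093 with it. DESeq2 1.42.0, limma 3.58.1, other scalings and filters, leave-one-out fits and a GC and length correction (99.1% of genes tested) were alternatives, and the scripts were tested on simulated data. Log2 CPM used a prior count of 2, and levels per kilobase the Ensembl canonical transcript.

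All 31 genes are named. Values in every library are given for those called or changed 2-fold, for sensors, XBP1 and the most abundant gene of each role, and up to 3 genes per direction with the smallest p-values are named from other lists. The genes and lists were chosen with earlier results of these data known.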

Additional observations from a re-analysis of the deposited data

How the results depend on the processing

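For all 31 genes and 18 alternatives, 534 of 558 log2 fold changes kept their sign. The settings with a 2-fold minimum add no sign of their own to this total. They reuse the fold changes of the unpaired edgeR fit, of DESeq2 and of the fit with the block. The unpaired counts of 0 genes called higher and 0 lower remained 0 with upper quartile or RLE scaling, with limma voom, with a minimum of 10 counts per library, a 2-fold minimum and the GC and length correction without the block. With the replicate block 3010 genes were called higher and 3009 lower (2 and 14 of the 31), with the block and a 2-fold minimum 530 and 1097 (0 and 2), with DESeq2 815 and 866 (0 and 6), with DESeq2 at an unadjusted p under 0.05 and 2-fold 444 and 840 (0 and 2), and without the low-count filter 1148 and 1425 (0 and 7). Settings chosen after seeing the data were DESeq2 with the block (2153 and 1934, with 1 and 9 of the 31), limma voom with the block (3234 and 3228, 3 and 14), the block with 2-fold, and the GC and length correction, which with the block gave 3877 and 2644 (3 and 12), raised the higher share of calls from 50% to 59.5% and moved the median of the 31 genes from -0.16 to -0.10 while that of all genes went to 0.07. Leaving out 1 library, with its zone's lone library assumed to vary like the others, gave 0 to 826 genes higher and 4 to 1287 lower, 0 to 5 of the 31 lower, and a median of -0.179 to -0.0810. Without invasion zone replicate 1, 5 were lower (CALR, DNAJB9, EIF2AK3, ERO1A and HERPUD1), without core replicate 2 DNAJB9 and ERO1A were, without the second invasion zone library ERO1A was, and without core replicate 1 none was. The cause was not tested.

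Signs turned only for genes near 0, each at an adjusted p of at least 0.65. SSR1 became 0.0027 with RLE scaling, 0.0028 with DESeq2 and 0.0037 with DESeq2 and the block. With the GC and length correction SSR1 became 0.0560, EDEM1 0.0577, ERN1 0.0311, ATF6 0.0060 and CRELD2 0.0777, and with the block added 0.0557, 0.0518, 0.0281, 0.0042 and 0.0431. SEC61A1 became -0.013 with upper quartile scaling and -0.0054 with at least 10 counts per library. With 1 library left out, SSR1 ranged from -0.0394 to 0.0359, SEC61A1 from -0.0174 to 0.0783, PPIB from -0.0167 to 0.138, DERL2 from -0.0305 to 0.164, DERL1 from -0.148 to 0.0395 and CRELD2 from -0.427 to 0.0767. With 2 libraries per zone, of which the second of each had 14983135 and 11789243 counts, small differences such as those of ATF6 and ERN1 could not be told from the spread between replicates.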

Other observations

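Most genes of a list of cytosolic and mitochondrial chaperones were higher in the invasion zone libraries. The list also holds HSF1, a transcription factor, and several subunits of the TRiC chaperonin. Of its 27 genes, 17 rose and 3 fell with the replicate block, against 19.4% of all genes in each direction. The median log2 fold change of the 27 was 0.46. CCT5, a subunit of the TRiC chaperonin that folds actin and tubulin, had 158 and 250 CPM in the core and 333 and 433 CPM in the invasion zone. HSPD1, the mitochondrial HSP60, had 235 and 372 CPM in the core and 449 and 593 CPM in the invasion zone, and CCT2, another TRiC subunit, had 160 and 165 against 253 and 262 CPM. None of the 3 overlapped between zones, and their log2 fold changes were 0.91, 0.78 and 0.66 (adjusted p = 0.152, 0.173 and 0.128 by edgeR unpaired, and 0.00013, 0.000202 and 0.000243 with the block). CCT5 shares exonic bases with an antisense gene.

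The genes of that list that fell were HSPA1A, BAG3 and DNAJB1. Their log2 fold changes were -0.43, -0.29 and -0.26 (adjusted p = 0.459, 0.267 and 0.481 by edgeR unpaired, and 0.0142, 0.0147 and 0.0237 with the block). These calls were lost when the GC and length correction was added to the block (log2 fold changes -0.19, -0.09 and -0.15, adjusted p = 0.252, 0.458 and 0.199) and by DESeq2 with the block (adjusted p = 0.0905, 0.0693 and 0.114). HSPA1A had 39.6 and 25.5 CPM in the core and 29.9 and 18.4 CPM in the invasion zone. It is nearly identical to HSPA1B (-0.37), so reads counted for either are uncertain. No gene of the list passed the unpaired edgeR test, 10 were higher and 0 lower at an unadjusted p under 0.05, against 11.9% and 12.4% of all genes, and DESeq2 called 3 higher, against 5.25%. A difference between this list and the ER genes was not tested.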
